A study of Mus musculus with 12 samples.

Results

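Regulatory T cells (Treg) sorted from tumours were compared with Treg sorted from the spleens of mice that carried no tumour. The members were chosen by their group labels: 2 tumour Treg libraries and 2 normal spleen Treg libraries, 4 of the 12 RNA sequencing libraries in the series. A pair of libraries of Treg from the spleens of tumour-bearing (TB) mice was used as the middle step between them. The tumour and TB spleen groups came from C57BL/6 mice given 500000 TC-1 cells through the tail vein and sampled after 3 weeks, and the normal spleen group from C57BL/6 mice with no tumour. TC-1 is a mouse lung epithelial line transformed with papillomavirus oncogenes and activated ras. In every group CD4+ T cells were enriched by negative selection and the GFP+ fraction was sorted as Treg (the gene that drives GFP is not given in the labels used here), and no age, sex or genotype beyond the strain is given in the labels used here. The GFP- fraction, sorted as conventional CD4+ T cells (Tconv) from the same sites, makes up the other 6 libraries. The labels do not say whether the replicates came from separate mice or pools, so p-values measure the spread between these libraries, which may be technical. T cells of the tumour-bearing organ from normal mice were not analysed here, so effects of the tumour and of the organ cannot be told apart.

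Treg restrain other immune cells and depend on the transcription factor Foxp3. Resting Treg circulate through the spleen and lymph nodes, where they carry the homing receptors of naive T cells. Treg that settle in tissues or tumours are known to take on an effector programme that includes suppressive cytokines, granzymes, inhibitory receptors, other chemokine receptors and the growth factor amphiregulin, and the IL-33 receptor ST2 marks part of these cells. The change of each gene was divided into step 1 (TB spleen Treg over normal spleen Treg, the same organ in mice with and without a tumour) and step 2 (tumour Treg over TB spleen Treg, 2 sites in mice with a tumour). The total change (tumour Treg over normal spleen Treg) is the sum of the steps on the log2 scale. Levels are CPM, a gene's counts scaled to a common library total after TMM normalization, and a gene was called higher or lower at an adjusted p of at most 0.05 in edgeR's quasi-likelihood test over 13509 tested genes. The steps share the TB spleen libraries, so an error there moves them in opposite directions.

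The 6 Treg libraries held 22004608 to 24111546 counts. Foxp3 lay at 1155 and 1247 CPM in tumour Treg, 1028 and 1004 CPM in TB spleen Treg and 989 and 1042 CPM in normal spleen Treg. It was highest in the tumour libraries, and the difference between tumour and normal spleen did not pass the test (0.24 ± 0.11, adjusted p = 0.0755), nor did either step. Cd4 was at 960 and 1121 CPM in tumour Treg, 1174 and 1044 CPM in TB spleen Treg and 1165 and 1186 CPM in normal spleen Treg and was not called. Between replicates the variance per gene was 15.1 times that of counting alone in tumour Treg, 6.8 times in TB spleen Treg and 4.94 times in normal spleen Treg. On the first principal component of the 6 libraries, which held 90.7% of the variance, tumour Treg lay at 122 and 127, TB spleen Treg at -56.9 and -50.6 and normal spleen Treg at -71.1 and -70.6. The second component, with 5.12%, placed TB spleen Treg at 25.3 and 27.7, tumour Treg at -3.2 and -1.47 and normal spleen Treg at -18.7 and -29.6. The tumour thus stood far from both spleens on the first component, and the spleens were apart on the second.

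Transcripts of other cells were present in the tumour libraries. Fibroblast markers summed to 0.0677% and 0.0747% of the counts in tumour Treg, against at most 0.00055% in the 4 spleen Treg libraries, and all 9 tested members were higher in tumour than in normal spleen Treg. Col3a1, a fibrillar collagen, had 4300 and 4036 counts in tumour Treg and 0 in all 4 spleen Treg libraries, at least 2805-fold higher than normal spleen when its group sum is set to a floor of 3 counts. The macrophage and monocyte list was higher in 18 of 18 members and took 0.101% and 0.116% of the counts in tumour Treg, against 0.0375% to 0.0436% in spleen Treg. Its member Chil3, a chitinase-like protein of alveolar macrophages, had 4507 and 4969 counts in tumour Treg, 0 and 23 in TB spleen Treg and 0 in normal spleen Treg. The lung epithelial secretory gene Scgb1a1 had 2428 and 1359 counts in tumour Treg, 0 and 1 in TB spleen Treg and 0 in normal spleen Treg, and the list of epithelial markers was higher in 13 of 15 tested members. Neutrophil markers were higher in 7 of 10 and dendritic cell markers in 6 of 8, against 34.0% of all genes. Members with 0 or few counts in spleen Treg passed the count filter only through libraries in which they were high. The member counts of these marker lists were thus partly set by the filter and are a description only. Endothelial markers were higher in 3 and lower in 1 of 4, and NK cell markers higher in 1 and lower in 3 of 5. The endothelial list summed to 0.0102% and 0.0122% of the counts in tumour Treg, below the 0.021% to 0.0235% in spleen Treg. Its members Vwf, Tek, Emcn and Cldn5 had 0 counts in normal spleen Treg, so the sum there came from the other members. Vwf went the other way from the sum, with 65 and 39 counts in tumour Treg and 5 and 3 in TB spleen Treg. The NK cell list summed to 0.00394% and 0.00465% in tumour Treg, below the 0.00696% to 0.00851% in spleen Treg. Ncr1, Klra8, Klra4, Klrk1 and Klre1 had 0 counts in normal spleen Treg, so this sum likewise came from the other members there. Klrk1 had 10 and 12 counts in tumour Treg and 4 and 6 in TB spleen Treg. Of 6 T cell markers 0 were higher and 4 lower, and they summed to 0.326% and 0.347% of the counts in tumour Treg, against 0.389% to 0.44% in spleen Treg. Of the 2 tested B cell markers 1 was lower. S100a9, a neutrophil calcium-binding protein, had 57 and 37 counts in tumour Treg, 0 and 25 in TB spleen Treg and 0 in normal spleen Treg, so it was seen in 1 of the 2 TB spleen libraries. The part of these transcripts in the results on tumour Treg was not tested. In bulk libraries, fewer cells with a transcript and less of it per cell cannot be told apart.

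**Figure D1:**
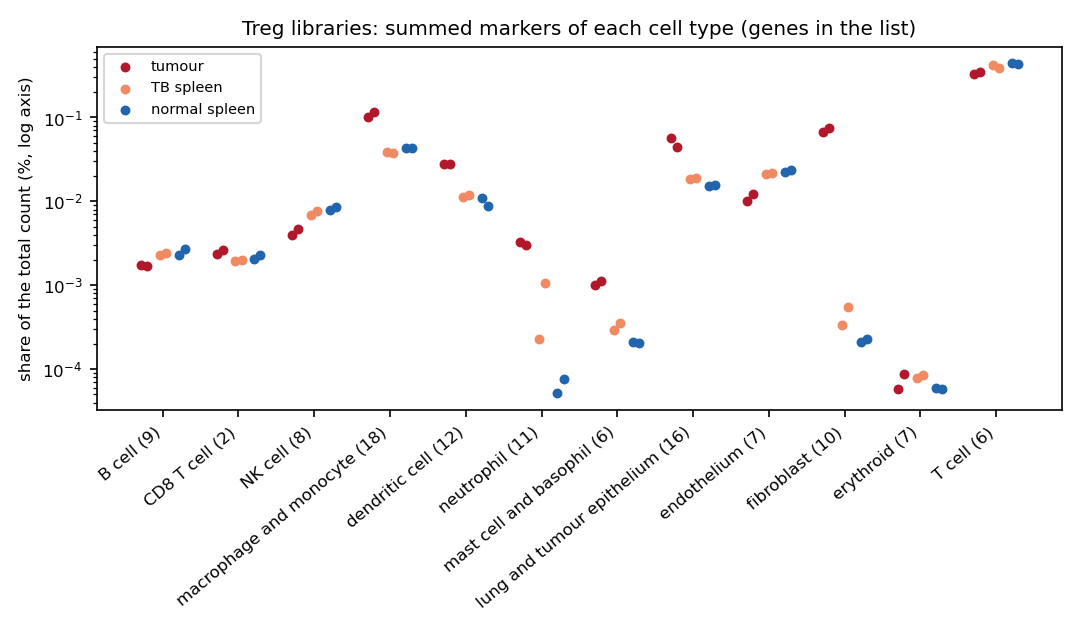
Share of the total count (percent, log axis) taken by the summed markers of each cell type in the 6 Treg libraries, a point a library, tumour left of TB spleen and normal spleen, with the number of genes of each list in brackets. Fibroblast markers lie at 0.0677% and 0.0747% in tumour Treg and at no more than 0.00055% in spleen Treg, while T cell markers lie at 0.326% to 0.44% in all 6.

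Of the 13509 genes tested, 4590 (34.0%) were higher and 4203 (31.1%) lower in tumour Treg than in normal spleen Treg, and 2721 of the first and 909 of the second by 2-fold or more. With scaling by library size alone 4053 were higher and 4974 lower, so which direction holds more genes rests on the scaling. The largest increases among well counted genes (a mean of at least 3 log2 CPM over the Treg libraries) were in Thbs1, Areg, Fosl2, Sv2c, Lrp1 and Ctla2a. Fosl2, an AP-1 family transcription factor (chromosome 5, 32135801 to 32157842, mm10), had 1135 and 1247 CPM in tumour Treg, 54.8 and 53.9 CPM in TB spleen Treg and 10.2 and 6.81 CPM in normal spleen Treg. Areg, which encodes amphiregulin, a growth factor of the EGF family that tissue Treg release in repair, had 322 and 412 CPM in tumour Treg, 3.6 and 4.19 CPM in TB spleen Treg and 2.18 and 1.42 CPM in normal spleen Treg. The total log2 fold change was 7.13 ± 0.2 for Fosl2 (adjusted p = 8.66e-11) and 7.66 ± 0.17 for Areg (adjusted p = 1.1e-11). In both genes the tumour libraries lay far above the spleen libraries, and the TB spleen libraries above those of normal spleen with no overlap. Thbs1, which encodes the matrix glycoprotein thrombospondin, had 360 and 414 CPM in tumour Treg, 3.07 and 2.12 CPM in TB spleen Treg and 2.68 and 0.935 CPM in normal spleen Treg. Lrp1, a scavenger receptor that macrophages and fibroblasts express, had 154 and 167 CPM in tumour Treg, 4.95 and 4.7 CPM in TB spleen Treg and 1.84 and 0.534 CPM in normal spleen Treg. Neither was called in step 1, and their increase was in the libraries that also held the macrophage and fibroblast transcripts above.

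The largest decreases were in Gucy1a3, Dtx1, Gpr83, Gata1, Hivep3 and Aff3, with log2 fold changes of -5.06 to -2.85. Gucy1a3, a subunit of the soluble guanylate cyclase that senses nitric oxide, had 1.22 and 1.4 CPM in tumour Treg, 39.9 and 34.8 CPM in TB spleen Treg and 49.6 and 37.8 CPM in normal spleen Treg. Its fall was in step 2 (-4.83 ± 0.19, adjusted p = 2.24e-09), and step 1 did not pass the test (-0.23 ± 0.13, adjusted p = 0.28). Gpr83, a G protein-coupled receptor known as a Treg transcript, had 16.4 and 20.7 CPM in tumour Treg, 124 and 113 CPM in TB spleen Treg and 159 and 159 CPM in normal spleen Treg. It fell in both steps, more in the second (adjusted p = 4.13e-06 for the difference of the steps). Gata1, Hivep3 and Dtx1 were likewise lower in both steps, and Aff3 in step 2 with step 1 not called. The step 1 call of Gpr83 was lost without the second TB spleen library and without either of the normal spleen libraries.

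Step 1 was the smaller: 918 genes (6.80%) were higher and 1148 (8.50%) lower in TB spleen than in normal spleen Treg, with a median size of 0.42 on the log2 scale among called genes. In step 2, 4427 genes (32.8%) were higher and 3872 (28.7%) lower in tumour than in TB spleen Treg, with a median size of 0.73, against 0.79 for the total change. With scaling by library size alone the split was 1281 higher and 645 lower in step 1 and 3491 higher and 5267 lower in step 2, so the balance of directions rests on the scaling. The step 1 calls also rest on every spleen library, since 856 genes were called without the first TB spleen library, 683 without the second, 1010 without the first normal spleen library and 512 without the second. In the same 4 settings the genes higher in both steps numbered 195, 169, 219 and 157, those lower in both 149, 101, 173 and 102, those lower and then higher 83, 86, 153 and 57, and those higher and then lower 96, 93, 148 and 61.

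Of 918 genes higher in step 1, 384 were higher again in step 2, which is 41.8% of the step 1 genes and 8.67% of the 4427 step 2 genes. Another 294 (32% of the step 1 genes) were lower in step 2, and 240 (26.1%) were not called there. Of 1148 genes lower in step 1, 425 were lower again (37% of the step 1 genes and 11% of the 3872 step 2 genes), 308 (26.8%) were higher in step 2 and 415 (36.1%) were not called. All 384 and all 425 genes that moved the same way in both steps were called in the total change. Of the 294 genes higher and then lower, 174 were not called in the total change, 26 were higher and 94 lower. Of the 308 lower and then higher, 201 were not called, 86 were higher and 21 lower. Most genes called in the total change were called in step 2 and not in step 1: 3365 higher and 2708 lower. A further 523 higher and 606 lower genes passed in the total change and in neither step.

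**Figure D2:**
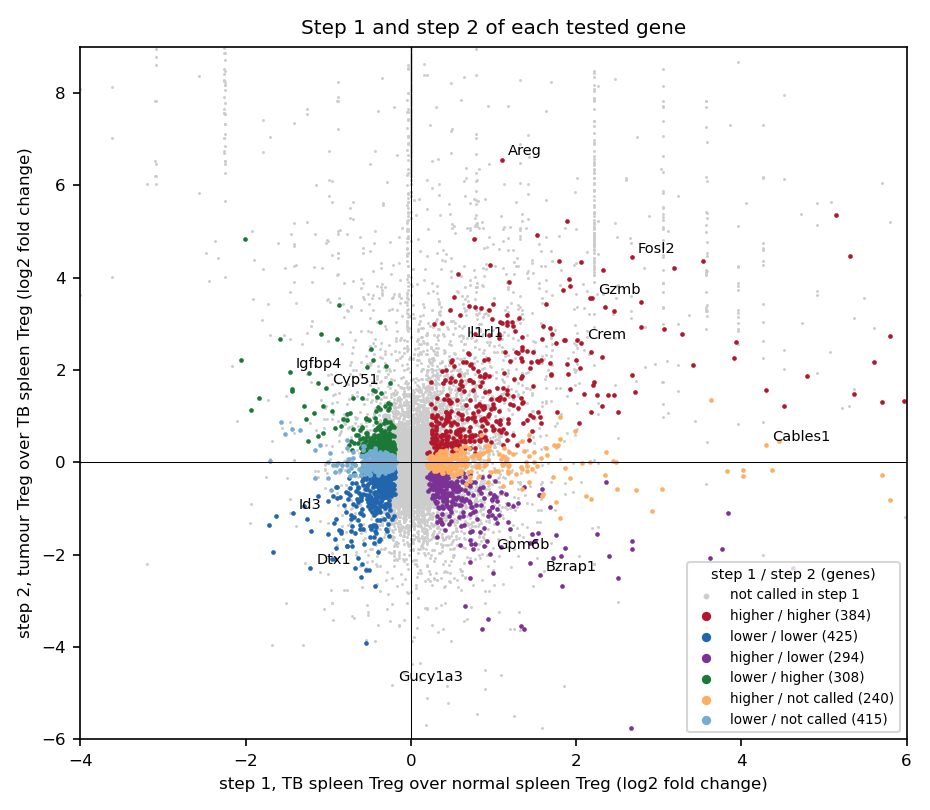
Log2 fold change of each tested gene in step 1 (x axis) and step 2 (y axis), coloured by its class, with the number of genes of each class; 176 of 13509 genes lie outside the axes, and genes with few counts form vertical stripes. Called genes lie in all 4 corners of the plot, with 384 at upper right, 425 at lower left, 308 at upper left and 294 at lower right.

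How much of the total change was already present in the TB spleen was measured on well counted genes called with at least a 2-fold total change. The limit on counts was a mean that included the tumour libraries, so genes low in both spleens could pass it through the tumour alone. Among the higher genes this choice favours a small share in step 1, and its part in the values was not tested. Over 685 such genes higher in tumour Treg, step 1 held a median of 17.3% of the log2 change (quartiles 5.87% and 32.4%). Over 450 lower genes it held 15.2% (quartiles 2.59% and 27.5%). The difference of the steps was called in favour of step 2 for 463 of the 685 and of step 1 for 26, and for 352 and 1 of the 450. Over all genes the test of step 1 minus step 2 called 2391 (17.7%) positive and 2149 (15.9%) negative, and with scaling by library size alone 3835 and 1279. Without the first TB spleen library 2228 genes in all were called, and without the second 2599.

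The genes higher in both steps had medians of 0.78 in step 1, 1.1 in step 2 and 2.02 in total on the log2 scale. Those with the largest smaller step were Fosl2, Metrnl, Ctla2a, Gzmb and Crem. Ctla2a encodes a cysteine protease inhibitor related to the propeptide of cathepsins (chromosome 13, 60934155 to 60936625), and it had 428 and 437 CPM in tumour Treg, 23.8 and 24.1 CPM in TB spleen Treg and 3.56 and 6.01 CPM in normal spleen Treg. Gzmb, the serine protease granzyme B of cytotoxic granules, had 765 and 833 CPM in tumour Treg, 52.2 and 84.5 CPM in TB spleen Treg and 12.6 and 17.4 CPM in normal spleen Treg. Crem, a cyclic AMP responsive transcription factor, had 591 and 599 CPM in tumour Treg, 101 and 98.4 CPM in TB spleen Treg and 24.3 and 23.6 CPM in normal spleen Treg. In all of these the 3 groups were separated without overlap in the order tumour, TB spleen, normal spleen. Crem rose by 2.06 ± 0.08 in step 1 and 2.58 ± 0.08 in step 2 (adjusted p = 1.1e-07 and 2.78e-10), and step 2 was the larger (adjusted p = 0.0116). Metrnl, a secreted factor of the meteorin family, rose by 2.46 ± 0.26 and 3.28 ± 0.2, and the difference of its steps did not pass the test (adjusted p = 0.139). Reads of Ctla2a can be shared with its near-identical neighbour Ctla2b, and those of Gzmb with other granzymes, so their values are uncertain to that extent.

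**Figure D3:**
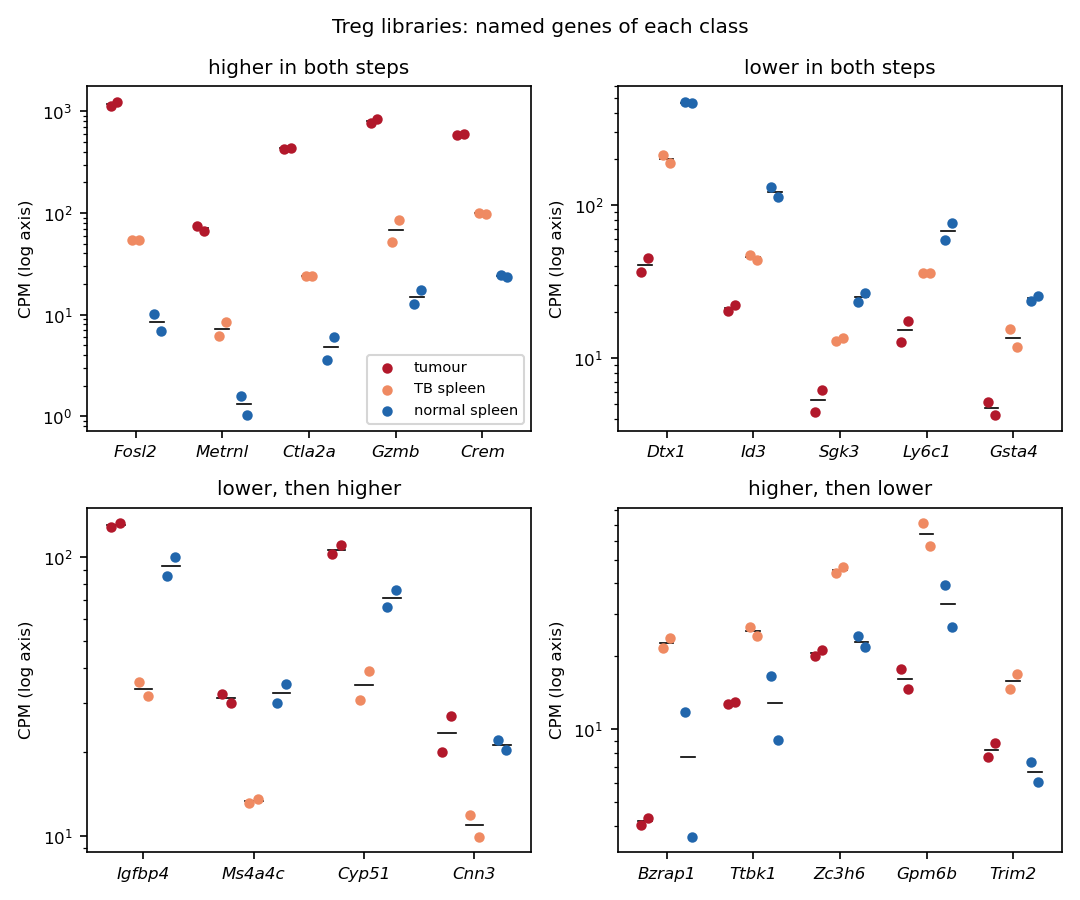
CPM (log axis) of named genes of each class in the 6 Treg libraries, tumour left of TB spleen and normal spleen; points are libraries and lines the group means. For Crem the libraries lie at 591 and 599 CPM in tumour, 101 and 98.4 in TB spleen and 24.3 and 23.6 in normal spleen Treg, and for Cyp51 the TB spleen libraries lie below the others.

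Because Fosl2, an AP-1 family gene, was among the genes higher in both steps, promoters of this class were searched for the AP-1 motif TGANTCA on both strands. The window ran from 250 bases before to 50 after the RefSeq start (build GRCm38.p6), and 10133 of the 13509 tested genes had such a promoter. In all, 12921 promoters were read, and a gene was counted if any of its promoters held the letters. They occurred in 34 of 279 genes higher in both steps (12.2%) and in 226 of 2736 genes higher in step 2 alone (8.26%). Of genes lower in both, 24 of 326 held them (7.36%), and of all 10133 genes 6.43% did. Genes lower in step 2 alone held it in 118 of 2450 (4.82%). In step 1 alone, 10 of 185 higher genes (5.41%) and 18 of 325 lower genes (5.54%) held it. For genes lower and then higher it was 18 of 243 (7.41%), and for those higher and then lower 11 of 223 (4.93%). A match is a description of letters and says nothing of binding. Examples from this class, chosen after their values were seen, are given with the 250 bases before the start and the motif in capitals. The Ctla2a promoter lies at chr13:60936626-60936875 on the minus strand, with the motif starting 129 bases before the start site. That of Tnfaip3, an ubiquitin-editing inhibitor of NF-kappa B signalling, lies at chr10:19015411-19015660 on the minus strand, with the motif starting 136 bases before.
Ctla2a: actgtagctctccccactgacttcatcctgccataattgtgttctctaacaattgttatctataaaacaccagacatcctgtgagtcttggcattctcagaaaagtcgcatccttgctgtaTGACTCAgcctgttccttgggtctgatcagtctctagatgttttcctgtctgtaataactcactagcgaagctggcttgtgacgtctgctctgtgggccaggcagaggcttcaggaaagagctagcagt
Tnfaip3: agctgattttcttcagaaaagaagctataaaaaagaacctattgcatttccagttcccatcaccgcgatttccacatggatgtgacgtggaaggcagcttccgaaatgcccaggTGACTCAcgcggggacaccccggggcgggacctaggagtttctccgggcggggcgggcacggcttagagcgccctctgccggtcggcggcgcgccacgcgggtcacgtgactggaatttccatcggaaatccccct
Tnfaip3 had 4253 and 4166 CPM in tumour Treg, 568 and 512 CPM in TB spleen Treg and 169 and 188 CPM in normal spleen Treg, and rose by 1.6 ± 0.12 in step 1 and 2.96 ± 0.12 in step 2 on the log2 scale. Its tumour libraries were the highest and those of normal spleen the lowest, with no overlap.

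The genes lower in both steps had medians of -0.36 in step 1, -0.51 in step 2 and -0.88 in total on the log2 scale. By the same rule they were led by Dtx1, Id3, Sgk3, Ly6c1 and Gsta4. Dtx1, a ubiquitin ligase of the Notch pathway (chromosome 5, 120680202 to 120711927), had 36.5 and 44.9 CPM in tumour Treg, 212 and 188 CPM in TB spleen Treg and 474 and 462 CPM in normal spleen Treg. Id3, an inhibitor of E protein transcription factors, had 20.2 and 22.2 CPM in tumour Treg, 47.2 and 43.8 CPM in TB spleen Treg and 132 and 113 CPM in normal spleen Treg. The libraries of each group were separated from those of the others in both genes. Dtx1 fell by 1.22 ± 0.12 in step 1 and by 2.3 ± 0.13 in step 2 on the log2 scale, and the second step was the larger (adjusted p = 0.0019). Id3 fell by 1.43 ± 0.23 and by 1.1 ± 0.25, and the difference of its steps did not pass the test (adjusted p = 0.581). Id2, the related inhibitor, moved the other way, with 676 and 674 CPM in tumour Treg, 82 and 81.7 CPM in TB spleen Treg and 37.9 and 39.5 CPM in normal spleen Treg. Gsta4, a glutathione transferase, lost its step 1 call without the second TB spleen library (-0.68, adjusted p = 0.0944) and without the second normal spleen library (-0.81, adjusted p = 0.0804).

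Of the genes lower in step 1 and higher in step 2, those with a large smaller step included Igfbp4, Ms4a4c, Cyp51 and Cnn3. Igfbp4, an insulin-like growth factor binding protein that naive T cells express, had 128 and 132 CPM in tumour Treg, 35.6 and 31.6 CPM in TB spleen Treg and 85.4 and 100 CPM in normal spleen Treg. Cyp51, the sterol demethylase of cholesterol synthesis, had 102 and 110 CPM in tumour Treg, 30.6 and 39 CPM in TB spleen Treg and 66.2 and 76 CPM in normal spleen Treg. In both of these the TB spleen libraries were the lowest. For Cyp51 and Igfbp4 the tumour libraries were above those of normal spleen (total 0.58 ± 0.13, adjusted p = 0.00148, and 0.48 ± 0.09, adjusted p = 0.000617). In Ms4a4c and Cnn3 the tumour libraries overlapped those of normal spleen, with total changes of -0.06 ± 0.12 and 0.14 ± 0.15 that did not pass the test.

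Sterol synthesis and uptake was the list with the most members in this class. Cells make cholesterol through the mevalonate pathway, whose enzymes are induced together by the sterol-sensing factor that Srebf2 encodes. Of 23 tested members, 20 were lower and 1 higher in TB spleen than in normal spleen Treg, against 8.50% and 6.80% of all genes. In tumour over TB spleen Treg 15 were higher and 2 lower, against 32.8% and 28.7%, and 14 members were lower and then higher. The median log2 fold change was -0.7 in step 1 and 0.54 in step 2, against 0 and 0.02 over all tested genes, and in total it was -0.33, with 5 members higher and 11 lower. Among the early enzymes, Hmgcs1, the synthase that feeds the pathway, had 68.2 and 79.7 CPM in tumour Treg, 38.6 and 46.6 CPM in TB spleen Treg and 72 and 81.8 CPM in normal spleen Treg. Among the later ones, Sqle, which opens the committed sterol branch, had 28.8 and 29.3 CPM in tumour Treg, 13.2 and 17.1 CPM in TB spleen Treg and 33.8 and 39.2 CPM in normal spleen Treg. The TB spleen libraries were the lowest in both and overlapped with neither other group. The exception in step 1 was Abca1, the transporter that exports cholesterol, which had 71 and 74.6 CPM in tumour Treg, 127 and 118 CPM in TB spleen Treg and 62.3 and 57.2 CPM in normal spleen Treg. It was highest in TB spleen Treg, rising by 1.03 ± 0.08 in step 1 (adjusted p = 6.71e-06) and falling by 0.75 ± 0.08 in step 2 (adjusted p = 4.51e-06). Without 1 library the step 1 count of lower members was 13 to 20 of 23, the lowest without the first TB spleen library, and with scaling by library size it was 17.

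Of the 15 members with a RefSeq promoter, Hmgcs1 alone held the sterol response letters TCACCCCAC on either strand, against 0.641% of all tested genes with a promoter. They are shown in capitals in the 250 bases before its start (chr13:119690101-119690350, plus strand, GRCm38.p6), starting 137 bases before the start site.
Hmgcs1: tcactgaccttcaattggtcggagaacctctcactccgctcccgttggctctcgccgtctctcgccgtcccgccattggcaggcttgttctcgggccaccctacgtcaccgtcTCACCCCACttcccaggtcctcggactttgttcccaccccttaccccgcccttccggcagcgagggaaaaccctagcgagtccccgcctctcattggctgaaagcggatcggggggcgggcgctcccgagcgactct
Other members may carry variants of this motif that these letters do not cover.

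Interferon-stimulated genes were higher in step 2 almost throughout. They encode antiviral and antigen-presentation proteins that cells make when interferon activates STAT and IRF factors. Of 36 members, 33 were higher and 1 lower in tumour over TB spleen Treg, and 32 were higher and 1 lower in the total change, against 34.0% and 31.1% of all genes. The total median was 1.01 on the log2 scale, against 0.01 over all tested genes. In step 1 only 3 were higher and 8 lower, and the 8 lower members were higher in step 2. Isg15, a ubiquitin-like protein (chromosome 4, 156199424 to 156200818), had 146 and 138 CPM in tumour Treg, 23.6 and 28.2 CPM in TB spleen Treg and 35.6 and 36.7 CPM in normal spleen Treg. Bst2, a membrane protein that tethers virions, had 186 and 136 CPM in tumour Treg, 37.2 and 39.2 CPM in TB spleen Treg and 53.8 and 56.4 CPM in normal spleen Treg. Igtp, an interferon-inducible GTPase, had 641 and 592 CPM in tumour Treg, 255 and 286 CPM in TB spleen Treg and 356 and 359 CPM in normal spleen Treg. Each was lowest in TB spleen and highest in the tumour libraries. Cxcl10, a chemokine for CXCR3-bearing cells that macrophages also make, had 206 and 174 CPM in tumour Treg, 8.05 and 8.25 CPM in TB spleen Treg and 8.16 and 4.85 CPM in normal spleen Treg, with no call in step 1. Socs1, an inhibitor of cytokine signalling, went the other way and was highest in TB spleen Treg at 91 and 97.4 CPM, against 75.4 and 66 CPM in tumour Treg and 64.8 and 57.9 CPM in normal spleen Treg. Its step 1 increase was not called without the second normal spleen library. The step 1 decreases were small and rested on every spleen library: 0 members were called lower without the second normal spleen library, 0 without the first TB spleen library, 2 without the first normal spleen library and 3 without the second TB spleen library. The step 1 median was -0.03, and 0.04 with scaling by library size.

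The interferon-stimulated response motif (GAAA, any 2 bases, GAAA) was found on either strand in 16 of 29 list members with a promoter (55.2%). Of all 10133 genes 3.75% held it. The Isg15 promoter (chr4:156200819-156201068, minus strand, GRCm38.p6) is shown because its 3 matches overlap, starting between 78 and 66 bases before the start site.
Isg15: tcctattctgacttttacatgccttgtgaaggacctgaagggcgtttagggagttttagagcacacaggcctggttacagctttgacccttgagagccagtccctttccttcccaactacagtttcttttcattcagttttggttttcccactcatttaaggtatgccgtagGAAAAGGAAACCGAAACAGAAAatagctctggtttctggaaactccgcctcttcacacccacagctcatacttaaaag

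**Figure D4:**
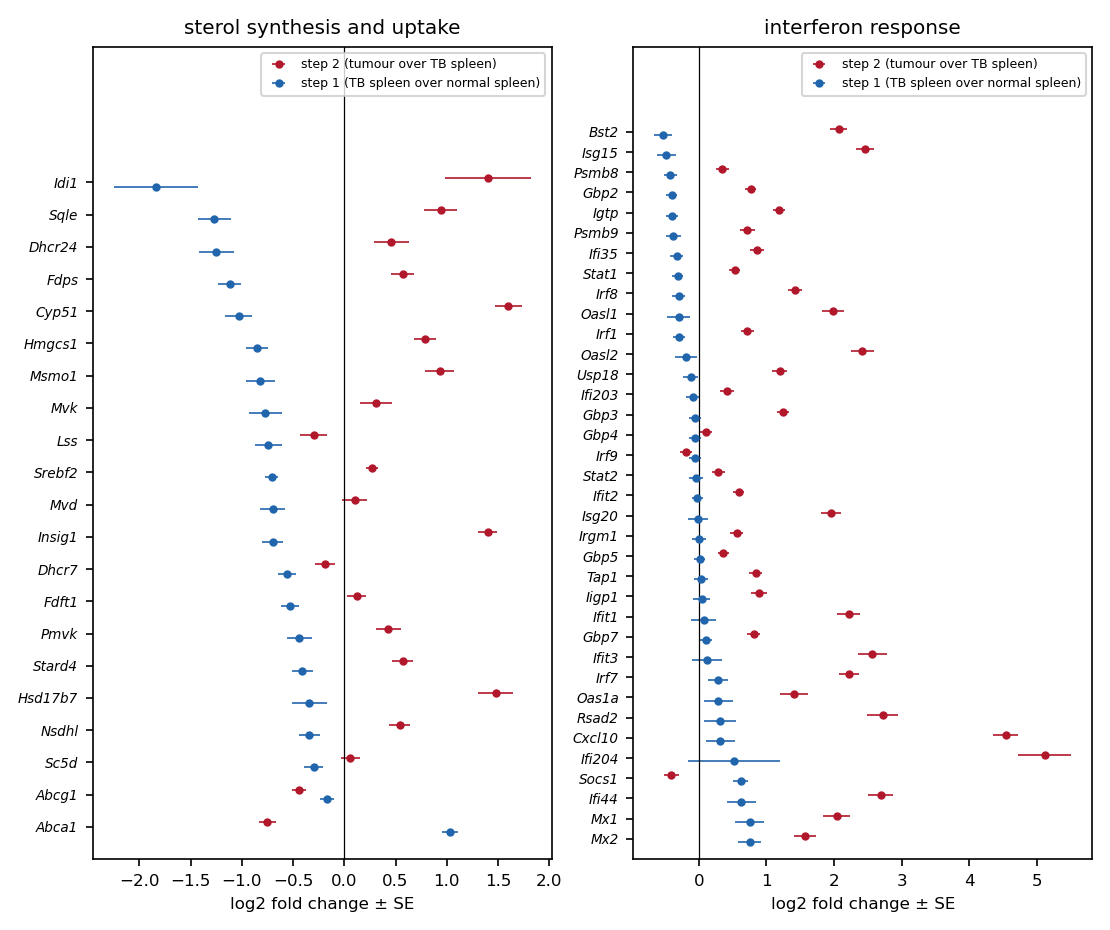
Log2 fold change ± SE of members of the sterol list (left) and the interferon list (right) in step 2 (red) and step 1 (blue), in the order of step 1. On the left every step 1 point but that of Abca1 lies below 0 and most step 2 points above it; on the right 33 step 2 points were called above 0 while the step 1 points gather around 0.

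Genes higher in step 1 and lower in step 2 were led by Bzrap1, Ttbk1, Zc3h6, Gpm6b and Trim2. Zc3h6, a zinc finger protein, had 20 and 21.2 CPM in tumour Treg, 44.1 and 46.8 CPM in TB spleen Treg and 24.2 and 21.9 CPM in normal spleen Treg. Trim2, a ubiquitin ligase, had 7.68 and 8.78 CPM in tumour Treg, 14.7 and 16.9 CPM in TB spleen Treg and 7.36 and 6.05 CPM in normal spleen Treg. The TB spleen libraries were the highest in both, and the total change did not pass the test (-0.17 ± 0.09 and 0.29 ± 0.2, adjusted p = 0.107 and 0.215). Gpm6b, a membrane proteolipid best known from neurons, had 17.7 and 14.7 CPM in tumour Treg, 70.9 and 57.2 CPM in TB spleen Treg and 39.3 and 26.5 CPM in normal spleen Treg, and was lower in tumour than in normal spleen (-1.03 ± 0.2, adjusted p = 0.000609). The step 1 calls of Bzrap1, Ttbk1 and Gpm6b rest on single libraries. Without the second normal spleen library the log2 fold change was 0.95, adjusted p = 0.0571 for Bzrap1, 0.61, adjusted p = 0.187 for Ttbk1 and 0.7, adjusted p = 0.0672 for Gpm6b. Without the first TB spleen library all 3 also missed the threshold, and without the second TB spleen library Bzrap1 and Ttbk1 did. Of the 20 genes that the naming rule gives over the 4 classes, 16 kept both step calls without any 1 of the 6 Treg libraries. Stat4, a transducer of interleukin 12 signals, belonged to the same class, with 202 and 219 CPM in tumour Treg, 300 and 297 CPM in TB spleen Treg and 213 and 221 CPM in normal spleen Treg, and 26.7% of its exonic bases are shared with a gene of the same strand.

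Other genes were called in step 1 and not in step 2, which does not show that step 2 left them unchanged. Among 240 genes higher in step 1 and not called in step 2, 206 were higher in the total change, and Cables1, Klf9, Il1r2 and Mid2 had the largest step 1 increase. Cables1, a cyclin-dependent kinase adaptor protein, had 37.9 and 33.8 CPM in tumour Treg, 26.2 and 29 CPM in TB spleen Treg and 1.63 and 1.16 CPM in normal spleen Treg. Klf9, a zinc finger transcription factor that glucocorticoids induce, had 50 and 54.4 CPM in tumour Treg, 40.2 and 44.4 CPM in TB spleen Treg and 15.7 and 11.5 CPM in normal spleen Treg. Il1r2, the decoy receptor that binds interleukin 1 without signalling, had 87.3 and 75.6 CPM in tumour Treg, 74.5 and 78.1 CPM in TB spleen Treg and 33.8 and 17 CPM in normal spleen Treg. The normal spleen libraries were the lowest in all 3 genes; the tumour libraries overlapped those of TB spleen in Il1r2 and lay somewhat above them in Cables1 and Klf9, with no call. Cables1 rose by 4.3 ± 0.27 in step 1 (adjusted p = 2.91e-06) and its step 2 value of 0.38 ± 0.2 did not pass (adjusted p = 0.122). Of its exonic bases 34.2% are shared with genes of the opposite strand, and no source used here states whether reads were counted by strand. Among 415 genes lower in step 1 and not called in step 2, 349 were lower in the total change, led by Prg4, Nqo2, Rln3 and Hsph1. Hsph1, a large heat shock protein, had 84.5 and 96.5 CPM in tumour Treg, 123 and 87.7 CPM in TB spleen Treg and 200 and 199 CPM in normal spleen Treg. For Prg4 and Rln3 the step 1 call was lost without the second TB spleen or the second normal spleen library, and for Prg4 also without the first TB spleen library.

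By the test of step 1 minus step 2, the largest negative values among well counted genes, a larger rise in step 2, were in Thbs1, Plac8, Emp1 and Areg. Plac8, a small cysteine-rich protein, had 353 and 244 CPM in tumour Treg, 4.42 and 4.44 CPM in TB spleen Treg and 4.23 and 6.63 CPM in normal spleen Treg. The spleen groups overlapped and the tumour libraries were far above them (step 2 6.07 ± 0.28, adjusted p = 7.77e-09, and step 1 -0.29 ± 0.34, adjusted p = 0.624). The largest positive values were in Gucy1a3, Bzrap1, Cables1 and Sh3gl3. Gucy1a3, Bzrap1 and Sh3gl3 fell in step 2, while Cables1 rose in step 1 and was not called in step 2.

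Genes printed beside the lists below that the naming rule does not give (among them Abca1, Hmgcs1, Socs1 and Stat4 above) were chosen after their values were seen. Lists of genes with known roles were described by their counts and medians, beside the percentages of all genes given above. For the total change these are 34.0% higher and 31.1% lower, for step 1 6.80% and 8.50%, and for step 2 32.8% and 28.7%, and the medians over all tested genes are 0.01, 0 and 0.02. Of 19 genes of IL-33 and its receptor pathway, 8 were higher and 3 lower in total, with a median of 0.09 (-0.01 with scaling by library size). The ligand gene Il33 had 56 and 64 counts in tumour Treg and 0 in all 4 spleen Treg libraries, at least 40.4-fold higher than normal spleen with the same floor. These counts were in the libraries that also held the epithelial and fibroblast transcripts above, and which cells they came from was not tested. Il1rl1, which encodes ST2, had 462 and 441 CPM in tumour Treg, 59.9 and 86.9 CPM in TB spleen Treg and 37.5 and 59.5 CPM in normal spleen Treg. Step 2 was called (2.62 ± 0.27, adjusted p = 5.07e-06) and step 1 was not (0.6 ± 0.27, adjusted p = 0.153), and its step 2 was the larger by test (adjusted p = 0.00609). The coreceptor gene Il1rap had 25.9 and 28.7 CPM in tumour Treg, 27.1 and 28.7 CPM in TB spleen Treg and 28.1 and 28.9 CPM in normal spleen Treg and was called in neither step nor in total. Downstream, Nfkbia, the NF-kappa B inhibitor, rose in total by 1.59 ± 0.07 and Nfkb2 by 1.07 ± 0.06, the second in both steps. The step 1 call of Nfkb2 was lost without either of the TB spleen libraries and without the second normal spleen library.

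The tissue and effector Treg list had 27 of 28 members higher and 1 lower in total, with a median of 2.54. In step 1, 11 were higher and 0 lower, and in step 2, 26 were higher and 1 lower, and the 11 rose in both steps. They include Areg, Gzmb, the suppressive cytokine Il10, the lipid enzyme Dgat2, the transcriptional regulator Rora and Rgs2, a brake on G protein signalling. Rgs2 had 1813 and 1651 CPM in tumour Treg, 91.9 and 78.3 CPM in TB spleen Treg and 19.4 and 21.5 CPM in normal spleen Treg. Il10 had 93.4 and 92.7 CPM in tumour Treg, 11.8 and 9.82 CPM in TB spleen Treg and 5.27 and 5.7 CPM in normal spleen Treg. The groups did not overlap in either gene, and the tumour was highest. Ccr8, the chemokine receptor known from tumour Treg, had 523 and 462 CPM in tumour Treg, 94.7 and 94.3 CPM in TB spleen Treg and 42.2 and 36.2 CPM in normal spleen Treg, and it rose in both steps (1.27 ± 0.12 and 2.38 ± 0.12). Without 1 library the number higher in step 1 was 7 to 12, lowest without the second TB spleen or the second normal spleen library. Of 19 Treg identity genes, 12 were higher and 4 lower in total. Il2ra, the high-affinity interleukin 2 receptor chain, had 1546 and 1502 CPM in tumour Treg, 726 and 782 CPM in TB spleen Treg and 942 and 1030 CPM in normal spleen Treg, higher in step 2 and not called in step 1. Nrp1, a coreceptor that marks thymus-derived Treg, had 310 and 326 CPM in tumour Treg, 444 and 450 CPM in TB spleen Treg and 591 and 580 CPM in normal spleen Treg and fell in both steps. Its step 1 call was lost without the second TB spleen library and without either of the normal spleen libraries.

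Among 22 inhibitory and costimulatory receptors, 12 were higher and 7 lower in total (median 0.46), 7 were higher and 2 lower in step 1, and all 9 of these moved the same way in step 2. Ctla4, the inhibitory receptor for B7 ligands, had 3086 and 3043 CPM in tumour Treg, 703 and 699 CPM in TB spleen Treg and 381 and 462 CPM in normal spleen Treg. Pdcd1, which encodes PD-1, had 874 and 709 CPM in tumour Treg, 302 and 308 CPM in TB spleen Treg and 154 and 124 CPM in normal spleen Treg. Havcr2, which encodes TIM-3, had 126 and 139 CPM in tumour Treg, 6.5 and 11.2 CPM in TB spleen Treg and 3.22 and 4.54 CPM in normal spleen Treg. Tnfrsf4, the costimulatory receptor OX40, had 1115 and 1101 CPM in tumour Treg, 583 and 573 CPM in TB spleen Treg and 322 and 315 CPM in normal spleen Treg. All 4 rose in both steps with no overlap between groups, and in Tnfrsf4 and Pdcd1 the difference of the steps did not pass the test (adjusted p = 0.783 and 0.557). Cd160, an inhibitory receptor of the same list, fell in step 2 alone, to 1.39 and 1.01 CPM in tumour Treg, against 15 and 13.9 CPM in TB spleen Treg and 13.9 and 13.6 CPM in normal spleen Treg.

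Genes of naive and lymphoid homing T cells were lower in 17 and higher in 3 of 22 in total (median -1), with 12 lower and 2 higher in step 1 and 13 lower and 6 higher in step 2. Without 1 library the number lower in step 1 was 6 to 15, lowest without the second normal spleen or the second TB spleen library. Tcf7, a transcription factor of naive and memory T cells, had 116 and 167 CPM in tumour Treg, 728 and 617 CPM in TB spleen Treg and 884 and 852 CPM in normal spleen Treg, and its fall was called in step 2 and not in step 1 (adjusted p = 0.0793). Lef1, its relative, had 102 and 147 CPM in tumour Treg, 261 and 243 CPM in TB spleen Treg and 371 and 384 CPM in normal spleen Treg, and fell in both. Il7r, the interleukin 7 receptor, rose in both steps, with 1471 and 1444 CPM in tumour Treg, 891 and 1059 CPM in TB spleen Treg and 358 and 475 CPM in normal spleen Treg. Ccr7, the lymph node homing receptor, was lower in step 1 and higher in step 2, with 681 and 684 CPM in tumour Treg, 220 and 193 CPM in TB spleen Treg and 248 and 243 CPM in normal spleen Treg, so the homing genes did not move as a block.

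Chemokine receptors of tissue homing were higher in 12 of 16 and lower in 1 in total (median 2.45), with 5 higher and 2 lower in step 1 (without 1 library 3 to 5 higher). Cx3cr1, the fractalkine receptor, had 41 and 34 CPM in tumour Treg, 5.52 and 5.46 CPM in TB spleen Treg and 0.502 and 0.623 CPM in normal spleen Treg. It rose in both steps, and the difference between them did not pass the test (adjusted p = 0.31). Cxcr6, a receptor of tissue-resident T cells, had 63.9 and 55.2 CPM in tumour Treg, 2.78 and 3.17 CPM in TB spleen Treg and 2.8 and 3.78 CPM in normal spleen Treg, and rose in step 2 alone. Cx3cr1 and Ccr1, which had 25.5 and 27.1 CPM in tumour Treg, 0.818 and 1.82 in TB spleen Treg and 0.209 and 0.445 in normal spleen Treg, are also expressed by the macrophages whose markers rose in the tumour libraries. Of 22 integrins and adhesion genes 14 were higher and 5 lower in total (median 0.65), and 4 higher and 4 lower in step 1 (without 1 library 1 to 4 higher and 2 to 6 lower). Itgav and Itga2 rose in both steps, and Itgae, the alpha E chain that binds epithelial cadherin, rose in step 2 with 666 and 600 CPM in tumour Treg, 97.5 and 130 CPM in TB spleen Treg and 92.4 and 91.9 CPM in normal spleen Treg. Itgb1, the common beta chain, fell in step 1 alone, with 395 and 492 CPM in tumour Treg, 438 and 486 CPM in TB spleen Treg and 681 and 799 CPM in normal spleen Treg.

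AP-1, Nr4a and immediate early genes, which stimulation and also tissue dissociation are known to induce, had a median of 3.02 in total, the highest of the lists other than markers of other cell types, with 25 of 29 higher and 3 lower. In step 1, 6 were higher, namely Fosl2, Nr4a2, Dusp1, Rel, Tnfaip3 and Bhlhe40, and all 6 rose again in step 2. Dusp1, a phosphatase that turns off MAP kinases, had 1024 and 1004 CPM in tumour Treg, 303 and 162 CPM in TB spleen Treg and 51.4 and 74.2 CPM in normal spleen Treg. Bhlhe40, a transcription factor of effector T cells, had 1200 and 1227 CPM in tumour Treg, 147 and 132 CPM in TB spleen Treg and 67.7 and 44.7 CPM in normal spleen Treg. Junb, an AP-1 subunit, had 2732 and 2933 CPM in tumour Treg, 814 and 431 CPM in TB spleen Treg and 379 and 408 CPM in normal spleen Treg, and was called in step 2 and not in step 1. The TB spleen libraries differed from each other in Dusp1 and Junb, the first of them being higher in both. Nr4a1, induced by T cell receptor signals, had 1148 and 1204 CPM in tumour Treg, 128 and 105 CPM in TB spleen Treg and 137 and 137 CPM in normal spleen Treg, with no call in step 1. Heat shock and chaperone genes were lower in 9 and higher in 1 of 16 in step 1 and higher in 9 and lower in 1 in step 2 (without 1 library 5 to 9 were lower in step 1). In total 7 were higher and 6 lower, with a median of 0.08 that changed sign with scaling by library size (-0.02).

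Helper lineage genes were higher in 10 and lower in 5 of 21 in total. Tbx21, the factor of type 1 helper cells, had 37.9 and 42.3 CPM in tumour Treg, 13.9 and 14.2 CPM in TB spleen Treg and 16.9 and 10.7 CPM in normal spleen Treg, and rose in step 2. Tnf and Lta, cytokines of the tumour necrosis factor family, fell in both steps, Tnf to 7.55 and 9.53 CPM in tumour Treg, against 22.8 and 17.3 in TB spleen Treg and 31.3 and 35.4 in normal spleen Treg. Their step 1 calls did not both hold without the second TB spleen library or without either of the normal spleen libraries. Cytotoxic effector genes were higher in 13 and lower in 1 of 16 in total, with 2 higher and 1 lower in step 1. Besides Gzmb, Ccl4 and Ccl3, chemokines that macrophages also make, were at most 3.54 CPM in tumour Treg. Of 28 genes of cytokine receptors and their signalling, 15 were higher and 3 lower in total and 8 were higher and 3 lower in step 1 (without 1 library 4 to 8 higher). Ifngr1, the ligand-binding chain of the interferon gamma receptor (chromosome 10, 19591949 to 19610229), had 2543 and 2617 CPM in tumour Treg, 1404 and 1432 CPM in TB spleen Treg and 324 and 371 CPM in normal spleen Treg. It rose by 2.03 ± 0.11 in step 1 and 0.86 ± 0.1 in step 2, and step 1 was the larger (adjusted p = 0.00043). Il18rap, a chain of the interleukin 18 receptor, had 91.3 and 97.2 CPM in tumour Treg, 31.7 and 51.7 CPM in TB spleen Treg and 19.9 and 25 CPM in normal spleen Treg and rose in both steps, while Il6ra, the interleukin 6 receptor chain, had 66.1 and 86.4 CPM in tumour Treg, 189 and 177 CPM in TB spleen Treg and 270 and 303 CPM in normal spleen Treg and fell in both.

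Metabolic lists differed from each other. Glycolysis and hypoxia genes were higher in 14 and lower in 3 of 25 in total (median 0.49) and in 2 and 1 in step 1. Slc16a3, the lactate exporter, had 203 and 175 CPM in tumour Treg, 54.9 and 51.5 CPM in TB spleen Treg and 24 and 18.3 CPM in normal spleen Treg, and Hif1a, the hypoxia-inducible factor, had 1545 and 1709 CPM in tumour Treg, 1200 and 1130 CPM in TB spleen Treg and 651 and 586 CPM in normal spleen Treg. Both rose in both steps. Ndrg1, a stress gene that hypoxia induces, had 357 and 344 CPM in tumour Treg, 34.2 and 36.8 CPM in TB spleen Treg and 39.6 and 40.5 CPM in normal spleen Treg, and rose in step 2 alone. The hypoxia response letters ACGTG stood on either strand in 18 of 23 list members with a promoter (78.3%), against 28.7% of all tested genes with one. Fatty acid and triglyceride genes were higher in 15 and lower in 5 of 24 in total. Dgat1, which with Dgat2 makes triglycerides, had 353 and 304 CPM in tumour Treg, 39.8 and 41.3 CPM in TB spleen Treg and 18.4 and 19.5 CPM in normal spleen Treg and rose in both steps. Cpt1a, which carries fatty acids into mitochondria, rose in step 1 and was not called in step 2, with 257 and 205 CPM in tumour Treg, 210 and 196 CPM in TB spleen Treg and 109 and 123 CPM in normal spleen Treg. The largest total changes of the list were in Fabp4, Cd36, Scd1 and Lpl, which lay at no more than 0.859 CPM in spleen Treg and are known from macrophages, fat and other cells. Oxidative phosphorylation genes were lower in 16 of 30 and higher in 0 in step 1, higher in 13 and lower in 2 in step 2, and higher in 4 and lower in 11 in total, all with small medians (-0.3, 0.15 and -0.08). The step 2 median turned to -0.01 with scaling by library size, with 7 higher and 4 lower, and the step 1 count of lower genes was 3 without the second normal spleen library, 4 without the second TB spleen library, 5 without the first TB spleen library and 8 without the first normal spleen library.

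Genes of the cell cycle were higher in the tumour. All 26 mitosis genes were higher in total and in step 2, with medians of 1.84 in total, 0.59 in step 1 and 1.26 in step 2 on the log2 scale. Cdk1, the kinase that drives entry into mitosis, had 25.9 and 22.7 CPM in tumour Treg, 3.93 and 7.03 CPM in TB spleen Treg and 4.1 and 4.5 CPM in normal spleen Treg, and Ube2c, an enzyme that completes it, had 23.9 and 25.3 CPM in tumour Treg, 5.56 and 7.24 CPM in TB spleen Treg and 3.22 and 5.34 CPM in normal spleen Treg. The tumour libraries were above the spleen libraries in both, and the spleen groups overlapped in Cdk1 and not in Ube2c, with no call in step 1. DNA replication genes were higher in 26 and lower in 2 of 30 in total, with a median of 0.65. Cytosolic ribosomal protein genes went down: 25 of 32 were lower and 0 higher in total (median -0.56), 20 lower in step 1 and 14 lower in step 2, of which 11 in both. Rps15 had 662 and 703 CPM in tumour Treg, 1012 and 924 CPM in TB spleen Treg and 1305 and 1338 CPM in normal spleen Treg. Rpl8 had 1066 and 991 CPM in tumour Treg, 1494 and 1338 CPM in TB spleen Treg and 1898 and 1961 CPM in normal spleen Treg. The 3 groups were apart in both genes, with the tumour lowest. Ribosomal protein genes have many near-identical copies in the genome, so their values are uncertain, and without the second TB spleen library 2 and without the second normal spleen library 3 of the 20 were called in step 1.

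**Figure D5:**
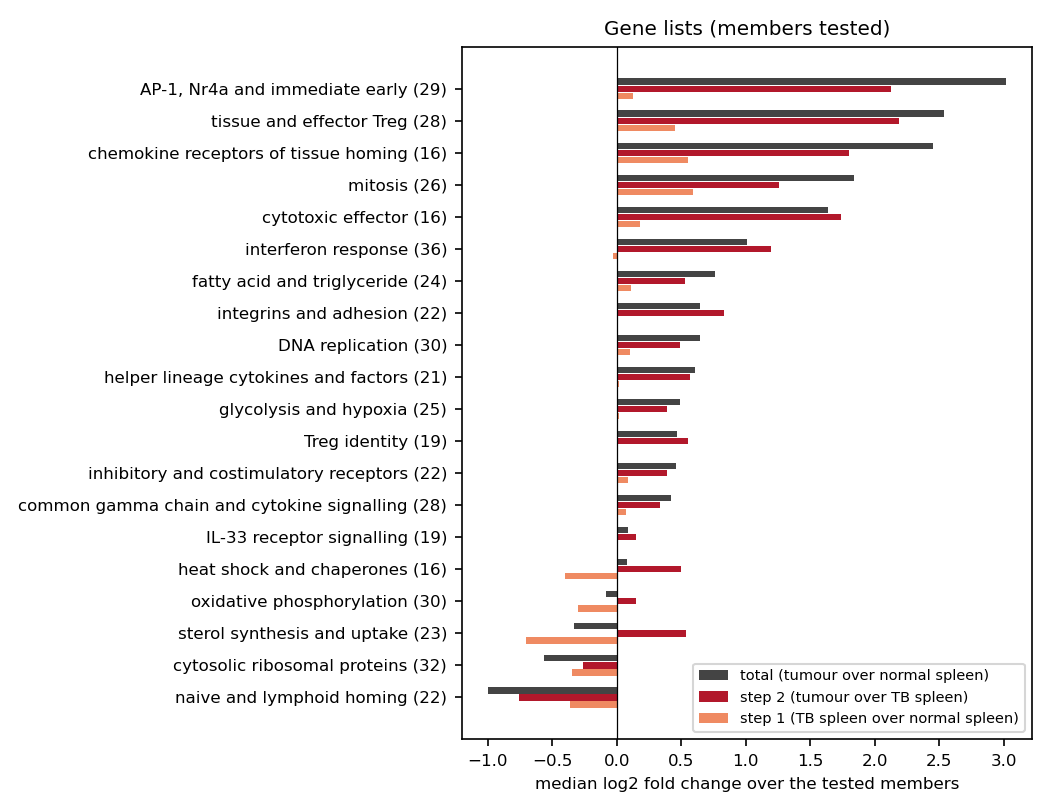
Median log2 fold change over the tested members of each list in the total change (dark grey), step 2 (red) and step 1 (orange), with the number of members tested, in the order of the total. Bars of step 1 and step 2 point the same way for the ribosomal and the naive lists and opposite ways for the sterol, heat shock and oxidative phosphorylation lists.

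Tconv sorted at the same sites gave a second change from normal spleen to tumour. The test of the Treg minus the Tconv total change called 1669 genes (12.4%) positive and 2240 (16.6%) negative. Among well counted genes the largest positive differences were in Sv2c, Fam46a, Cxcr6 and Id2. The total log2 fold change of Cxcr6 was 4.18 ± 0.18 in Treg and -0.45 ± 0.14 in Tconv, and that of Id2 was 4.12 ± 0.13 in Treg and -0.33 ± 0.12 in Tconv, with differences of 4.63 ± 0.23 and 4.45 ± 0.18 (adjusted p = 1.77e-07 and 2.93e-08). The largest negative differences were in Peli2, Gucy1a3, Lrrc32 and Bicd1. Lrrc32, which encodes the GARP receptor that presents latent TGF-beta on Treg, had 442 and 555 CPM in tumour Treg, 294 and 281 CPM in TB spleen Treg and 344 and 328 CPM in normal spleen Treg. Its total log2 fold change was 0.57 ± 0.15 in Treg and 5.49 ± 0.63 in Tconv, where its mean was 4.57 ± 2 CPM in the tumour and 0.0986 ± 0.00463 CPM in normal spleen. Gucy1a3 fell in Treg and rose by 0.5 ± 0.17 in Tconv (adjusted p = 0.0232). Of the genes higher in both steps, Fosl2 and Crem rose in Tconv as well (6.45 ± 0.19 and 4.87 ± 0.09), and the difference from Treg did not pass the test for either (adjusted p = 0.0508 and 0.175), which does not show that they changed alike.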

How the data were processed

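Messenger RNA was sequenced from 12 libraries with a stranded kit, per the labels' protocols. STAR, featureCounts and the mm10 build are named in the submitters' processing notes, without versions, which do not state whether reads were counted by strand. The authors deposited raw read counts per gene, which were used as deposited for 24062 genes, of which 5873 had 0 counts. Genes were filtered with edgeR's filterByExpr, which left 13509, scaled by TMM and fitted over all 12 libraries as 6 group means with edgeR 4.0.16 (quasi-likelihood F test, R 4.3.3, Benjamini-Hochberg adjustment over all tested genes, threshold 0.05). SE is the log2 fold change divided by the square root of F and includes the spread between libraries, while the floor of 3 counts covers counting error only. The Treg libraries held 22004608 to 24111546 counts.

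Alternatives were library-size scaling and DESeq2 size factors, the DESeq2 1.42.0 Wald test, a robust fit, fits on fewer groups, other filters and thresholds, a replicate block and leaving out each library. Named genes were the largest changes of each comparison and class among called genes with a mean of at least 3 log2 CPM, and up to 4 members of each list. Genes called in both steps were ranked by the smaller step. No overlap between the libraries compared was required for the total change and the classes. It was not required for the step difference and the Treg minus Tconv difference. The members and lists were chosen with earlier results of these data known. Gene positions came from GENCODE vM21 and promoters from RefSeq (GRCm38.p6). The pipeline was tested on simulated counts. Some genes that the naming rule gives are not reported here, though counts and medians of lists and classes include them.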

Additional observations from a re-analysis of the deposited data

Results flagged for a closer look

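The total change differed between Treg and Tconv by the test of the difference itself for 3909 genes (edgeR's quasi-likelihood test, adjusted p of at most 0.05). The 8 named genes are given as the Treg minus the Tconv log2 fold change, with no explanation. Sv2c, a synaptic vesicle protein, differed by 5.44 ± 0.61, with 7.12 ± 0.27 in Treg and 1.68 ± 0.39 in Tconv. Fam46a differed by 4.77 ± 0.21, Cxcr6 by 4.63 ± 0.23 and Id2 by 4.45 ± 0.18, and each was positive in Treg and negative in Tconv. Peli2, a ubiquitin ligase, differed by -8.36 ± 1.02, with -1.27 ± 0.24 in Treg and 7.09 ± 1.05 in Tconv. The limit for well counted genes was set on the Treg libraries, so Tconv changes of the named genes can start from few counts. Gucy1a3 differed by -5.56 ± 0.26 and fell in Treg. Lrrc32 differed by -4.92 ± 0.7 and Bicd1 by -4.47 ± 0.65, and both rose less in Treg than in Tconv. Without the second normal spleen Tconv library 2601 genes were called.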

How the results depend on the processing

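Of 9079 values of named genes under the alternatives, 8665 stayed called in the same direction or stayed not called. Another 342 lost the call, 72 gained it and 0 with a call reversed. The direction of values called in neither fit was not compared. Counts are given for the total change, step 1, step 2, the step difference and the Treg minus Tconv difference, and for the classes higher in both, lower in both, higher then lower, lower then higher, higher in step 1 only and lower in step 1 only. With library-size scaling, 558 genes were higher then lower, 98 lower then higher and 217 lower in step 1 only. At an adjusted p of at most 0.01, step 1 called 795, the step difference 2550 and the cell type difference 2231 genes, and the classes held 181, 136, 88, 81, 110 and 199. With a fold change of at least 2, the comparisons called 3630, 301, 3208, 1788 and 1139, and the classes held 118, 9, 31, 15, 112 and 16. The cause of these shifts beyond the stricter thresholds was not tested. Leaving out 1 library gave 7435 to 8692 genes in the total change, 512 to 2422 in step 1, 6846 to 8170 in step 2, 2228 to 4626 in the step difference and 2601 to 4108 in the cell type difference. The classes then held 157 to 353, 101 to 497, 61 to 330, 57 to 417, 53 to 329 and 82 to 620.

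Whether the replicate numbers in the titles mark libraries of the same animal or batch is not known, and correlations with 2 libraries a group cannot settle it. Deviations from the group means correlated at 0.0303 between tumour and normal spleen Treg, -0.0594 between tumour and TB spleen Treg and 0.0725 between TB spleen and normal spleen Treg. Between Treg and Tconv of a site they correlated at 0.0532 in the tumour, 0.264 in TB spleen and 0.179 in normal spleen, and across sites at -0.144 to 0.163. The sample descriptions number the normal spleen libraries differently, which would group other libraries, and a block by those numbers was not fitted. With the replicate block step 1 called 783 genes, and the classes held 218, 160, 99, 99, 78 and 129. With 2 libraries a group, small step 1 changes are the least certain.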
